A study of Homo sapiens with 2 samples.

Results

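Close pairs of binding summits, 0.5 to 1.5 kb apart (500 bp or more, and less than 1.5 kb) on the same autosome, were examined in a chromatin immunoprecipitation sequencing (ChIP-seq) experiment on Myocardin in A549, a human lung adenocarcinoma cell line. The pairs were chosen by the positions of the summits alone. Rows on chromosomes 1 to 22 were ordered by position, and both summits of every adjacent pair at that distance were taken. This gave 9028 pairs made of 17349 summits, which is 16.9% of the 102407 autosomal summits and 16.4% of the 105637 summits of the whole list. Of the 102385 adjacent autosomal pairs, 8.82% were close pairs. A set of 15004 adjacent pairs 5 to 8 kb apart, made of 27292 summits, was set beside them. The sets share 3332 summits, which is 19.2% of the summits in close pairs and 12.2% of those in the wider pairs.

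Both libraries came from A549 cells that carried stable MYOCD overexpression from the vector pWPI, one precipitated with anti-Myocardin and one with IgG, with 1 library per antibody. A control without MYOCD overexpression was not analysed here, and nothing in the labels says whether the line was 1 clone. The authors deposited 1 list for the series as a whole, in which every row is a summit 1 bp wide with a peak score. A summit is the position of highest signal within a peak. The score is whatever value the peak caller wrote, its unit is not named, and it serves here only to compare summits of the same list. The list assigns no summit to either antibody, so the anti-Myocardin and IgG libraries could not be compared at any pair. The cells of both libraries were grown in medium with 10% fetal bovine serum. The sources used here do not give their depth. Positions lay within the chromosomes of the human assembly GRCh37 and are given in it, 1-based. Neither the sequence nor the genes of that assembly were used here, and no pair is therefore placed in a gene, promoter or motif.

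Myocardin switches on genes of the smooth muscle and heart muscle programmes as a coactivator. It does not bind DNA by itself in its best known mode, but joins the serum response factor, which recognises the CArG box, and several muscle promoters carry more than one CArG box at short distance. In a list of summits without peak widths, a close pair is a pair of positions, and what lies between them is not recorded.

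Close pairs were the shortest common distances in the list, with 681 adjacent pairs closer than 500 bp. Their median distance was 930 bp, with quartiles of 702 and 1170 bp. Counted in steps of 100 bp, the number of pairs was 1056 at 500 to 599 bp, highest at 600 to 699 bp with 1171, and lowest at 1.4 to 1.5 kb with 575. The counts went on thinning past the upper limit, to a lowest count of 269 at 3.8 to 3.9 kb, and then climbed to the level of the wider pairs. At the lower limit, 95 pairs lay 500 to 509 bp apart and 87 lay 490 to 499 bp apart, just outside, with median scores of the weaker summit of 5.72 and 6.49. At the upper limit, 53 pairs lay in the last 10 bp inside it and 55 in the first 10 bp outside it, with medians of the weaker summit of 5.99 and 6.75. Because the distances chose the pairs, these counts are a description. The wider pairs had a median distance of 6452 bp, with between 442 and 558 pairs in each step of 100 bp from 5.1 kb upwards and 426 in the first.

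**Figure D1:**
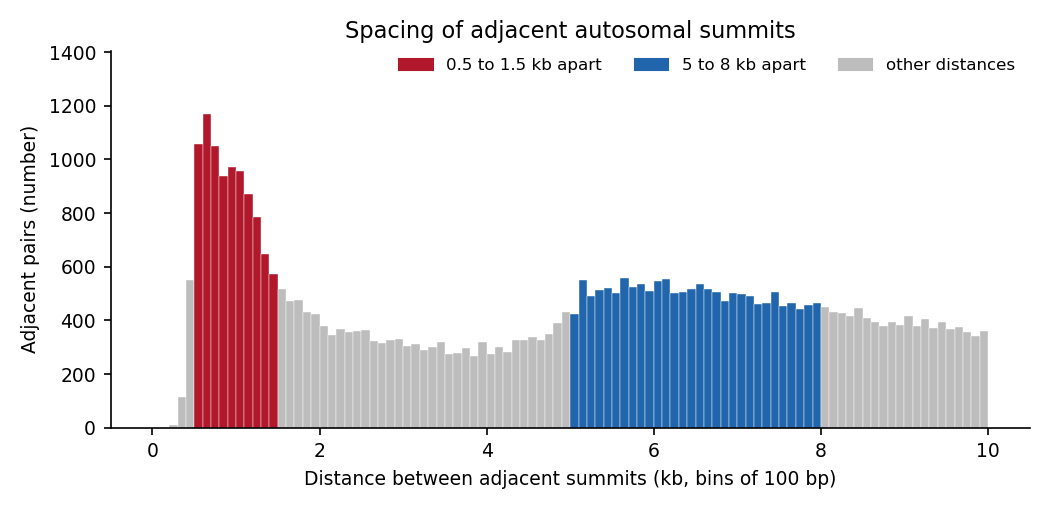
Number of adjacent autosomal summit pairs (vertical axis) by distance between the summits in bins of 100 bp (horizontal axis, kb), up to 10 kb; red bars are the close pairs, blue bars the pairs 5 to 8 kb apart and grey bars other distances. The red bars rise to 1171 pairs at 600 to 699 bp and end at 575 pairs at 1.4 to 1.5 kb.

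Summits of close pairs carried somewhat lower scores than those of the wider pairs and those in no close pair, but not the lowest among short distances. Over the 17349 summits the lowest score was 2.43, the median 8.14 and the highest 134, against a median of 8.28 in the pairs 5 to 8 kb apart and 8.69 in the 85058 autosomal summits that belong to no close pair. Counted over both scores of every pair, the median was 8.09 in close pairs. It was 7.71 at 1.5 to 2 kb, 7.74 at 2 to 5 kb and 6.49 under 500 bp. The upper quartile of all autosomal scores was 12.2. That value is itself shared by many summits, so 26.3% of autosomal summits reached it. Scores at or above it are called high here. Among summits of close pairs the share of high scores was 20.9% (exact Clopper-Pearson 95% interval 20.3 to 21.5), against 23.6% in the wider pairs (23.1 to 24.1). Scores at or under the lower quartile, 6.49, were found in 30.5% of summits in close pairs (29.8 to 31.2) against 29.3% in the wider pairs (28.8 to 29.8). All such intervals cover counting error only, since the summits come from 1 list and neighbouring summits are not independent.

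Very strong summits made up a smaller share of the close pairs. Scores of at least 30 were carried by 72 summits in close pairs, which is 0.415% (interval 0.325 to 0.522), against 271 in the wider pairs (0.993%, 0.879 to 1.12) and 1002 over all autosomes (0.978%). A score of at least 100 was carried by 3 summits in close pairs (0.0173%), against 10 in the wider pairs (0.0366%) and 30 over all autosomes (0.0293%), too few to set the shares apart.

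A further property of the scores was how often one exact value recurs. In the whole list 19 values are each shared by at least 150 summits. These repeated values made up 6.82% of the summits in close pairs (interval 6.45 to 7.20), against 17.3% in the wider pairs (16.9 to 17.8) and 29.0% of autosomal summits. Both summits carried a repeated value in 365 close pairs (4.04%), against 1238 of the wider pairs (8.25%). What gives rise to the repeated values was not tested. In pairs without them the share of high scores was 21.5% in close pairs, against 22.7% in the wider pairs, and Spearman's rank correlation between both scores was 0.178, against 0.154.

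The scores of a close pair went together only weakly. Spearman's rank correlation between the left and the right score was 0.170 over 9028 close pairs, against 0.130 over the 15004 wider pairs and 0.121 over all adjacent pairs. Both summits come from the same list and may share local depth and base composition, which were not measured here. Some summits also belong to more than one pair, so these values are descriptions. Expressed as a ratio, the higher score was a median of 1.46 times the lower (quartiles 1.199 and 1.93), against 1.51 times in the wider pairs (1.21 and 2.03). The scores lay within 1.5 times of each other in 4787 close pairs, which is 53.0% (interval 52.0 to 54.1), against 49.3% of the wider pairs (48.5 to 50.1) and 48.7% of all adjacent pairs. This share was 52.6% at 1.5 to 2 kb, 53.9% at 2 to 5 kb and 64.2% under 500 bp. It was therefore not particular to close pairs. A ratio above 2 was found in 22.6% of close pairs (21.8 to 23.5), against 25.8% of the wider pairs (25.1 to 26.5). At 1.5 to 2 kb the share above 2 was 22.6%, at 2 to 5 kb 21.7% and under 500 bp 15.3%. A ratio of at least 5 was found in 53 close pairs (0.587%), against 175 wider pairs (1.17%).

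Sorting each pair into a higher and a lower score tends to place their medians on either side of the overall median. The median autosomal score, 8.52, lay between them in both kinds of pair. In close pairs the higher score had a median of 10.2 and the lower a median of 6.49, against 10.8 and 6.60 in the wider pairs. Both scores were high in 497 close pairs (5.51%, interval 5.04 to 5.996), against 1063 wider pairs (7.08%, 6.68 to 7.51) and 8.31% of all adjacent pairs. This share was 3.36% at 1.5 to 2 kb, 3.46% at 2 to 5 kb and 0.881% under 500 bp. At longer distances it was higher, at 8.30% for 8 to 20 kb and 11.4% for 20 kb or more. Exactly one score was high in 30.1% of close pairs, against 33.0% of the wider pairs, and neither in 64.4% of close pairs, against 59.95%. The left summit was the higher in 4448 close pairs (49.3%), against 49.6% of the wider pairs.

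The partner's score was higher where a summit's own score was higher. Where one summit of a close pair lay below the lower quartile, its partner had a median score of 7.37, and 14.6% of partners had high scores (interval 13.7 to 15.6). Where one summit lay in the top 10% of scores, its partner had a median of 9.37, and 30.6% of partners had high scores (27.8 to 33.4). The corresponding values in the wider pairs were 7.65 and 18.1% at the low end, and 9.66 and 34.9% at the high end. The share of high-scoring partners was lower in close pairs in all 5 score classes, and it climbed from class to class in both kinds of pair.

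**Figure D2:**
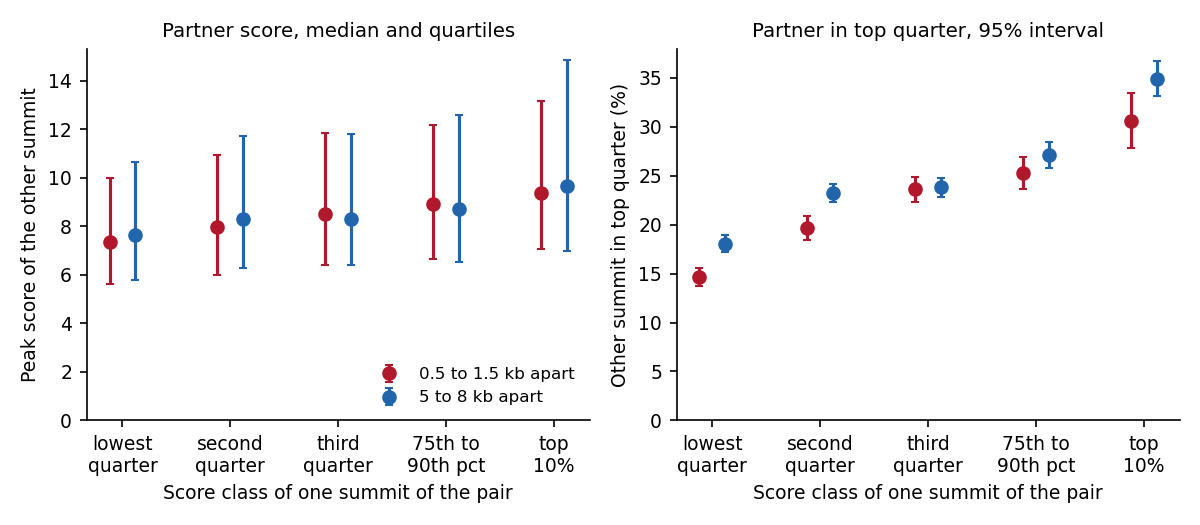
Left, median peak score of the other summit of a pair with quartiles as bars; right, percentage of other summits with high scores, at or above the upper quartile, with exact 95% intervals; the horizontal axis gives the score class of the first summit. Close pairs (red) run from 14.6% to 30.6% in the right panel, below the pairs 5 to 8 kb apart (blue), which run from 18.1% to 34.9%.

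Distance within the window of 0.5 to 1.5 kb made little difference to the agreement of scores. Over the steps of 100 bp, the rank correlation ran from 0.143 at 1200 to 1299 bp to 0.191 at 1.4 to 1.5 kb, with no steady course, and the median ratio ran from 1.43 to 1.49. The level of the scores did differ at the short end. Pairs 500 to 599 bp apart had a median score of 7.41, and both scores were high in 3.03% of them (interval 2.08 to 4.25). At 800 to 899 bp the median was 8.003 and this share 6.93% (5.39 to 8.75).

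Pairs differed more by their surroundings. The next summit outside a close pair lay a median of 6.86 kb away on the nearer side and 17.6 kb away on the farther side, against 5.39 and 14.1 kb for the wider pairs. In 1187 close pairs, 13.1% (interval 12.5 to 13.9), no other summit lay within 20 kb of either summit, against 7.42% of the wider pairs (7.004 to 7.85). In these isolated close pairs the rank correlation was 0.010, against 0.178 in the 7841 close pairs with another summit within 20 kb. For the wider pairs the corresponding values were 0.112 and 0.127. Isolated close pairs also scored higher, with a median of 9.44 and 32.0% of scores high, while the others had a median of 7.92 and 18.8% high. The wider pairs showed the same, with 9.22 and 34.4% high in isolated pairs and 8.28 and 22.7% in the others.

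The agreement inside a close pair was little above that with the next summit outside it. In 8250 close pairs whose next summit to the right lay at least 1.5 kb away, the rank correlation between both members was 0.168. Between the right member and that next summit, at a median distance of 12.003 kb, it was 0.140. In the wider pairs treated the same way, the rank correlation was 0.131 inside the pair and 0.134 to the next summit, at a median distance of 10.2 kb.

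Chains of more than 2 close summits were uncommon. When neighbouring close pairs that share a summit were joined, the 17349 summits formed 8321 runs, of which 7661 held 2 summits, 616 held 3, 41 held 4 and 3 held 5. The 660 runs of 3 or more held 2027 summits, 11.7% of all summits in close pairs, and 1367 of the 9028 pairs (15.1%, interval 14.4 to 15.9). Chains built the same way from distances of 5 to 8 kb held 32.7% of the wider pairs (31.9 to 33.5) and reached 7 summits. The windows differ in width and in how often a distance falls into them, so these shares are not on an equal footing.

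The gap that follows a pair on its right side can be set against the gap that follows any pair. After a close pair, the next gap was again close in 7.84% of cases (interval 7.29 to 8.41), against 8.82% after any adjacent pair. After a pair 5 to 8 kb apart, the next gap was again 5 to 8 kb in 18.1% of cases (17.5 to 18.7), against 14.7% after any adjacent pair. The pairs were also divided into 6 classes by the number of summits in the surrounding 1 Mb. The share of close gaps after a close pair was under that after any pair in each class, but in the sparsest class, with 669 close pairs, the shares were nearly equal, at 5.38% and 5.52%. In bins with 20 to 39 summits they were 5.56% and 6.67%, and in bins with 80 to 99 summits 7.84% and 10.9%. For the wider pairs the repeat of the same gap was above that after any pair in 5 of the 6 classes. There the shares were 6.36% and 4.09% in the sparsest class and 21.2% and 20.9% in bins with 80 to 99 summits, and the order turned in the most crowded bins, at 22.8% and 23.7%. Gaps of 1.5 to 2 kb were also fewer after a close pair (1.51%, interval 1.27 to 1.78, against 2.27% after any pair), as were gaps of 2 to 5 kb (8.24%, 7.68 to 8.82, against 9.56%). Gaps of 5 to 8 kb were more frequent there, at 18.8% (18.0 to 19.6), against 14.7% after any pair.

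Runs of 3 or more held lower scores than lone close pairs. The median score was 7.38 in runs of 3 or more, with 12.9% of scores high, against 8.27 and 21.9% in runs of 2. In chains of the wider pairs these values were 8.23 and 21.8% for 3 or more summits and 8.28 and 24.2% for 2. Runs of 3 spanned from 1014 to 2925 bp, with a median of 1790 bp.

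No place within a run of 3 stood out. The highest score lay at the first summit in 198 runs, at the middle one in 204 and at the last one in 214. The middle summit was thus highest in 33.1% of runs (interval 29.4 to 37.0), and the medians of the first, middle and last scores were 7.51, 7.34 and 7.39. The rank correlation between neighbouring scores was 0.140 and 0.112, and between the outer summits 0.176. The 2 gaps of a run were nearly unrelated in length (rank correlation 0.029 over 616 runs). All 3 scores were high in 3 runs and none was in 418.

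The longest runs showed both level and uneven scores. On chromosome 1, 5 summits from 161423988 to 161427717 spanned 3729 bp and scored 12.4, 8.54, 8.15, 8.52 and 9.25. On chromosome 15, 5 summits from 21145299 to 21148225 scored 13.8, 11.5, 4.49, 9.80 and 11.5, with the lowest in the middle. The remaining run of 5, on chromosome 15 from 101096117 to 101099183, stayed low throughout, at 4.57, 4.93, 5.34, 6.21 and 4.43. Of the runs of 4, the one with the highest summed score lay on chromosome 1 from 228778912 to 228782213, with scores of 4.66, 8.07, 25.1 and 15.0. Next came a run on chromosome 17 from 46619232 to 46622026, with scores of 12.2, 10.7, 14.6 and 11.01. Over the 44 runs of 4 or 5 summits the highest score was a median of 1.97 times the lowest, from 1.034 to 5.39 times. Their highest score was 25.1, so none contained a summit of 30 or more, and in 30 of them no score was high. Chromosome 17 held 6 of these runs, chromosome 10 held 5, and 16 of the 22 autosomes held at least 1.

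**Figure D3:**
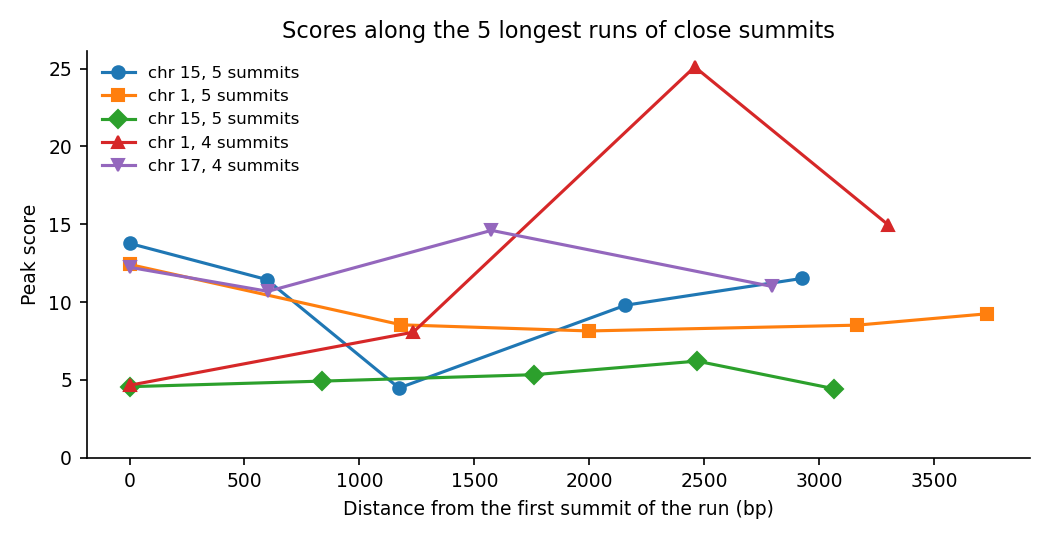
Peak score (vertical axis) of each summit in the 3 runs of 5 summits and the 2 runs of 4 with the highest summed score, by distance from the first summit of the run (horizontal axis, bp); each line is a run. One run on chromosome 15 stays between 4.43 and 6.21, and the run of 4 on chromosome 1 reaches 25.1 at its strongest summit.

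The strongest close pairs were those in which even the weaker summit scored high. First among the 10 with the highest weaker summit was a pair on chromosome 10 at 42528054 and 42529473, with scores of 44.7 and 72.6. It lay 0.172 Mb from a summit-free stretch of 1 Mb or more, and a further summit lay 0.738 kb to its right. The pair ranked second lay on chromosome 1 at 1224034 and 1225476, with scores of 43.6 and 51.6, at 1.22 Mb from the chromosome end. Next came a pair on chromosome 9 at 66486276 and 66486923, with scores of 38.3 and 60.9, at 0.985 Mb from a summit-free stretch. Another, on chromosome 2 at 133118821 and 133119381, scored 41.3 and 37.1.

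The remaining ones of these 10 lay on chromosomes 1, 6, 15 and 16. On chromosome 1 a pair at 16983708 and 16984908 scored 32.3 and 42.7. On the same arm a pair at 17075533 and 17076672 scored 27.1 and 39.3. On chromosome 6 the scores were 30.2 and 40.5 at 157734026 and 157735260. Chromosome 15 also held a couple of them, at 20486499 and 20487980 (40.6 and 29.0) and at 21315906 and 21317317 (42.4 and 28.7). A pair on chromosome 16, at 1002892 and 1003910, scored 57.4 and 26.5. Only in this last pair was the ratio of the scores above 2, and in the other 9 it ran from 1.11 to 1.62.

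The pairs with the most unequal scores placed a strong summit beside a weak one. On chromosome 12, at 4352242 and 4353095, the scores were 3.01 and 43.4, a ratio of 14.4. On chromosome 19, at 29379359 and 29380022, they were 70.1 and 5.61. On chromosome 14 a summit of 84.4 at 19614718 stood between summits of 7.61 at 19613664 and 7.16 at 19615698, with ratios of 11.1 and 11.8. The last of the 5 lay on chromosome 8 at 7885822 and 7887129, with scores of 61.9 and 5.66.

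A summit scoring 30 or more seldom had a partner that did so too, in either kind of pair. In 70 close pairs (0.775%) the higher score was at least 30, against 273 of the wider pairs (1.82%). In 6 of the 70 both scores reached 30, against 19 of the 273. Among all summits of close pairs 0.415% reached 30, and among those of the wider pairs 0.993%. The weaker partner had a median score of 10.6 (quartiles 8.65 and 18.6), against 10.2 in the wider pairs (7.37 and 19.5). It had a high score in 44.3% of these close pairs, against 20.9% of all summits in close pairs. In the wider pairs these shares were 42.1% and 23.6%. Of the 70 close pairs, 22 (31.4%) lay within 3 Mb of a summit-free stretch of at least 1 Mb, against 5.85% of all close pairs. For the wider pairs these shares were 19.4% and 4.93%. The part of these stretches in the scores was not tested.

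The share of adjacent pairs that were close differed between autosomes. It was highest on chromosome 19 at 11.2% (interval 10.3 to 12.1), on chromosome 17 at 11.1% (10.4 to 11.8) and on chromosome 21 at 10.1% (8.37 to 12.1). It was lowest on chromosome 3 at 7.10% (6.42 to 7.83), on chromosome 5 at 7.43% and on chromosome 6 at 7.58%. On 19 of the 22 autosomes it lay between 7% and 10%. Pairs 5 to 8 kb apart varied more widely, from 7.56% on chromosome 4 to 21.9% on chromosome 17. In absolute terms chromosome 2 carried most close pairs (799), followed by chromosome 17 (773) and chromosome 1 (647). Per Mb of chromosome length the number ran from 1.32 on chromosome 13 to 9.52 on chromosome 17.

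**Figure D4:**
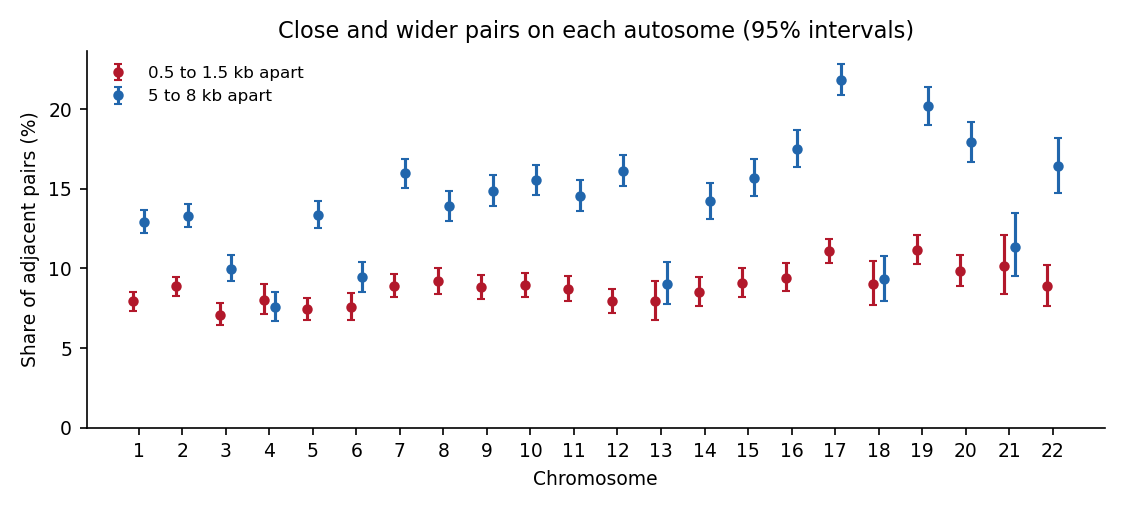
Percentage of adjacent summit pairs on each autosome (horizontal axis) that are close pairs (red) or pairs 5 to 8 kb apart (blue), with exact 95% intervals as bars. The red points stay between 7.10% and 11.2%, while the blue points range from 7.56% to 21.9%.

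Close pairs were most frequent relative to the wider pairs on chromosomes 4, 18, 21 and 13. Chromosome 4 was the only autosome with more close than wider pairs, 261 against 246. Because the window of the wider pairs covers a broader range of distances, these numbers compare chromosomes and not the frequency of both distances. On chromosome 18 the numbers were 153 and 158, on chromosome 21 they were 106 and 119, and on chromosome 13 they were 152 and 173. On chromosome 17 there were 773 close pairs against 1524 wider pairs, and chromosome 12 had the lowest ratio, with 426 against 865.

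The agreement of scores was spread over the chromosomes. The rank correlation between the scores of close pairs was above that of the wider pairs on 17 of the 22 autosomes. It ran from -0.012 on chromosome 18, with 153 pairs, to 0.235 on chromosome 8, and in the wider pairs from 0.056 to 0.170. The share of close pairs with scores within 1.5 times was above that of the wider pairs on 18 of the 22 autosomes. The share of high scores was lower in close pairs on 17 of the 22. Chromosome 22 had the lowest, with 9.28% of the scores of close pairs high, against 7.61% in its wider pairs. Chromosome 5 had the highest, with 25.6%.

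Regional crowding separated both kinds of pair. Each adjacent pair was assigned the number of summits in its 1 Mb bin, which by itself shortens the gaps in crowded bins. In bins with 1 to 19 summits, close pairs made up 5.47% of adjacent pairs (interval 5.08 to 5.89) and wider pairs 4.09% (3.75 to 4.46). In bins with 60 to 79 summits, the shares were 9.21% (8.80 to 9.62) and 18.0% (17.5 to 18.6). In bins with 100 to 150 summits, they were 13.5% (12.9 to 14.02) and 23.7% (23.03 to 24.4). Close pairs thus outnumbered the wider ones in the sparsest bins, 674 against 504, and were outnumbered in every denser class. The window of the wider pairs covers a broader range of distances. The size of one share against the other therefore depends on the windows, and only their course over the classes can be compared.

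High scores were more frequent in sparse bins in both kinds of pair. In the sparsest bins 28.6% of the scores of close pairs were high, against 35.7% in the wider pairs. In the most crowded bins these shares were 16.1% and 21.9%. Close pairs had the lower share of high scores in each of the 6 classes. The rank correlation between the scores of close pairs was 0.070 and 0.050 in the 2 sparsest classes and between 0.153 and 0.195 in the 4 denser ones. In the wider pairs it was -0.040 and 0.122 in the 2 sparsest classes and between 0.114 and 0.130 in the denser ones. In bins with 20 to 39 summits the correlation was thus lower in close pairs than in the wider pairs, the reverse of the order over all pairs.

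**Figure D5:**
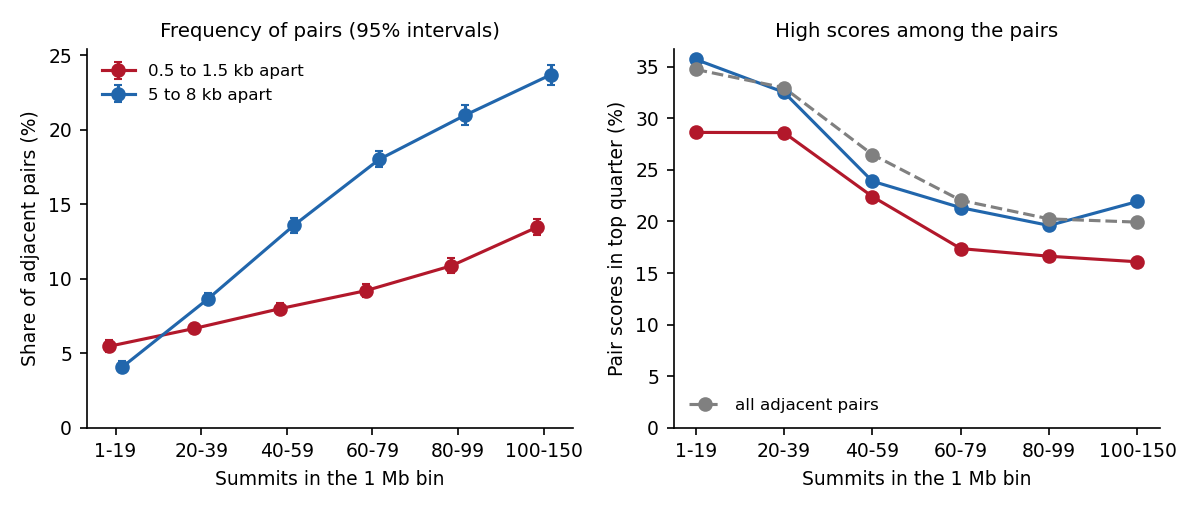
Left, percentage of adjacent pairs that are close pairs (red) or 5 to 8 kb apart (blue) with exact 95% intervals; right, percentage of pair scores that were high, with all adjacent pairs in grey; the horizontal axis gives the number of summits in the 1 Mb bin. Close pairs run from 5.47% to 13.5% on the left and from 28.6% down to 16.1% on the right.

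Within 50 kb of the midpoint of a close pair there were a median of 7 other summits (quartiles 4 and 11), against 7 (5 and 10) around the wider pairs and 5 (2 and 8) around all adjacent pairs. No other summit lay in that window for 298 close pairs (3.30%), against 1.45% of the wider pairs. Over the 2750 bins of 1 Mb with an adjacent pair, 2114 (76.9%) held at least 1 close pair, with a median of 2. A number of 10 or more was reached in 223 bins, which held 35.4% of close pairs and 21.6% of all adjacent pairs. These bins were picked by their number of close pairs, so the larger share of close pairs follows from that choice.

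The bins richest in close pairs, picked after their values were seen, lay on chromosomes 19, 8 and 2. The bin from 36000001 to 37000000 on chromosome 19 held 28 close pairs among 141 adjacent pairs (19.9%). On chromosome 8 the bin from 142000001 to 143000000 held 27 of 139, and on chromosome 2 the bin from 242000001 to 243000000 held 27 of 121 (22.3%). In this last bin close pairs outnumbered the 26 wider pairs, though the window of the wider pairs is the broader one. The neighbouring bin of the first, from 35000001 to 36000000 on chromosome 19, held 24 close pairs and 15 wider ones.

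Both close pairs and wider pairs lay in chromosome ends more often than adjacent pairs at large. In the outermost 5 Mb of the chromosome arms lay 1782 close pairs, 19.7% (interval 18.9 to 20.6), against 20.1% of the wider pairs (19.5 to 20.8) and 14.4% of all adjacent pairs. Among the adjacent pairs of the ends, 12.1% were close (11.5 to 12.6), against 8.27% in the rest of the arms (8.09 to 8.46). The wider pairs made up 20.4% and 13.7%. The order of both kinds of pair at the ends was not stable. In the outermost 2 Mb lay 9.13% of close pairs, against 9.02% of the wider pairs, and of the 11889 wider pairs that share no summit with a close pair 18.7% lay in the outermost 5 Mb. Without repeated scores, the shares in the outermost 5 Mb were 20.4% of close pairs (interval 19.5 to 21.3), against 23.4% of the wider pairs. In 34 of 39 arms the share of close pairs was higher in the end than in the rest of the arm. For the wider pairs the same held in 32 of the 39 arms, so this was not particular to close pairs. The share of close pairs in the long arm of chromosome 8 was 18.5% at its end and 7.02% elsewhere. The long arm of chromosome 19 went the other way, with 8.26% at its end and 13.7% elsewhere. In both of these arms the share of the wider pairs had the same order as that of close pairs.

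The scores of close pairs were lower at the ends, and more often alike. There the median score was 7.30 and 13.2% of scores were high, while away from the ends the values were 8.28 and 22.4%. The scores of the wider pairs were lower at the ends too, with a median of 7.62 and 17.8% high, and 8.38 and 25.03% away from them. Over all adjacent pairs 17.5% were high at the ends and 27.8% away from them. Scores lay within 1.5 times of each other in 56.7% of close pairs at the ends, against 49.6% of the wider pairs there. Away from the ends these shares were 52.1% and 49.2%. Over all adjacent pairs the share was 51.3% at the ends and 48.3% away from them. The rank correlation was 0.207 for close pairs at the ends, against 0.126 for the wider pairs there, and 0.145 against 0.123 away from the ends. Over all adjacent pairs it was 0.151 at the ends and 0.102 away from them, so a rise at the ends was not particular to close pairs.

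Beside summit-free stretches the scores were higher. Within 1 Mb of the edge of a summit-free stretch of at least 1 Mb lay 179 close pairs, 1.98% (interval 1.71 to 2.29), against 205 wider pairs (1.37%, 1.19 to 1.57) and 1.46% of all adjacent pairs. The scores of these close pairs had a median of 9.94, and 37.4% were high, against 20.2% of the scores of other close pairs. The same held for the wider pairs, with 40.5% high beside such stretches and 23.3% elsewhere, and for all adjacent pairs, with 38.96% and 26.1%. The highest score of any close pair, 134, was found there, as was the highest of the wider pairs, 268.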

How the data were processed

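ChIP-seq was done on 1 anti-Myocardin and 1 IgG library of A549 cells overexpressing MYOCD, with 15 cycles of PCR and gel isolation near 250 bp (adapters counted), per the labels' protocols. The authors deposited 1 list of summits, each with a score, per the file headers. It is labelled as MACS peaks. The sources used here give no version, threshold, control or treatment of duplicates for it. The submitters' processing notes list CASAVA 1.4 and the assemblies mm9 and GRCh38.p12. With chromosome lengths from the GenomeInfoDb tables, 0 nuclear summits lay past a chromosome end on GRCh37 (hg19), 1093 on GRCh38, 1667 on hg18 and 13627 on mm9. No column is tied to a sample, so the groups were not compared.

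Python 3.11.15, pandas 2.3.3, NumPy 2.4.6 and SciPy 1.17.1 were used. Chromosomes 13, 14, 15, 21 and 22 were each counted as a long arm only, and their short-arm ends did not count as chromosome ends. The other autosomes were divided into arms at their longest summit-free stretch. Shares carry exact Clopper-Pearson 95% intervals. No test was made. The procedure was tested on a simulated list with known pairs and runs. Pairs were named by rank: the 10 with the highest weaker summit, the 5 largest ratios, the 5 longest runs, and the 3 chromosomes at each end of the share of close pairs. The pairs, measures and lists were chosen with earlier results of these data known. The analyses planned on start sites, genes and sequence were not run, since no GRCh37 reference was used here.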

Additional observations from a re-analysis of the deposited data

How the results depend on the processing

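Of 39 alternatives over 6 results that could change the value of the close pairs, 24 gave one inside the 95% interval of the value reported, and 5 further ones changed only the wider pairs. The share with scores within 1.5 times (53.0%) was 51.97% in pairs 1 to 1.5 kb apart and 51.4% in pairs with no other summit within 5 kb. The share of summits with high scores, at or above the upper quartile (20.9%), was 20.1% in pairs 0.5 to 1 kb apart, 21.6% in pairs 1 to 1.5 kb apart, 21.5% without repeated scores, and 5.99% for the top 10% of scores. The share of pairs in runs of 3 or more (15.1%) was 10.6% with gaps of 0.5 to 1 kb, 5.21% with 1 to 1.5 kb and 16.5% with 0.4 to 1.6 kb, since narrower windows join fewer gaps. The share at chromosome ends (19.7%) was 17.5% without the densest 1% of bins, 9.13% for the outermost 2 Mb and 30.2% for 10 Mb. The median of 7 summits within 50 kb was 6 without chromosomes 17 and 19, 3 within 20 kb and 14 within 100 kb. The widths of windows and ends set those values by construction, and for the other moves the cause was not tested. The order of close and wider pairs turned in 2 alternatives, both for chromosome ends: 9.13% against 9.02% in the outermost 2 Mb, and 19.7% against 18.7% when the wider pairs were limited to the 11889 that share no summit with a close pair, an alternative chosen after seeing the data. The correlation of scores stayed between 0.151 and 0.178, and above the wider pairs, under all 8 of its alternatives. These did not include every subset, and in some the order turned. With no other summit within 20 kb the correlation was 0.010 in close pairs, against 0.112 in the wider pairs. In 1 Mb bins with 20 to 39 summits it was 0.050 against 0.122, while in the other density classes it stayed above the wider pairs. Among the 8 alternatives, Pearson's correlation of log2 scores, not a rank correlation, gave 0.176. The limit to wider pairs that share no summit with a close pair could not change the value of the close pairs. No paired analysis was possible because each antibody has 1 library and the list assigns no value to either. No replicate could be left out, and what depth limits is unknown without read counts.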

Other observations

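Some close pairs carried exactly the same score, to all deposited decimals, on a value that is rare in the list. This was noticed after the scores were seen. The scores were equal in 72 close pairs (0.798%), against 108 of the pairs 5 to 8 kb apart (0.720%). Over all adjacent pairs the share was higher, with 1581 equal (1.54%). In 103 of those 108 wider pairs the shared value was one of the 19 common ones, but in 31 of the 72 close pairs only. A shared value held by fewer than 50 summits of the whole list was found in 32 close pairs (0.354%, exact interval 0.243 to 0.5), against 4 of 15004 wider pairs (0.027%, 0.0073 to 0.068). In pairs under 500 bp apart it was 3 of 681 (0.441%, 0.0909 to 1.28), an interval that holds the share in close pairs. It was 0 of 2323 at 1.5 to 2 kb (upper bound 0.159%), 7 of 9789 at 2 to 5 kb (0.0715%, 0.0288 to 0.147) and 2 of 34688 at 20 kb or more (0.00577%, 0.000698 to 0.0208).

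These 32 pairs lay on 18 chromosomes, with distances from 511 to 1443 bp and a median of 777 bp. Of them 25 were under 1000 bp apart, among 5189 close pairs at that distance, and 7 were among the 3839 at 1000 bp or more. Their median score was 8.34, the lowest 3.70 and the highest 16.4. On chromosome 22, the summits at 38822942 and 38823606 both scored 3.70, a value that no other row of the list holds. On chromosome 17, those at 73717162 and 73717811 both scored 9.12, on chromosome 9 those at 140189413 and 140190268 both scored 6.18, and on chromosome 14 those at 54860073 and 54861516 both scored 13.002, each on a value that 3 rows hold. What gives a pair the same score was not tested.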
